A study of Arabidopsis thaliana with 16 samples.

Results

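Transcript levels in seedlings that lacked a component of the BAH-PHD-CPL2 (BPC) complex were compared with those in seedlings that lacked a Polycomb component. The BPC mutants were *aipp3-1*, *cpl2-2* and the double mutant *aipp2-1/paipp2-1*, with 6 libraries in all, and the Polycomb mutants were *clf-81* and *lhp1-3*, with 4 libraries in all. These 10 libraries of 5 genotypes were taken from 16 mRNA libraries of 8 genotypes, and each genotype had 2 libraries. The other genotypes were the wild type Col-0, which is the background of every mutant, and the single mutants *aipp2-1* and *paipp2-1*. All plants were whole seedlings grown for 12 days on medium with 1% sucrose at 23 °C under 16 h of light a day, with no further treatment. Within each set the mean of every genotype had the same weight.

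In Arabidopsis, Polycomb proteins keep developmental and environmental genes silent. CLF is a methyltransferase that places the histone mark H3K27me3, and LHP1 is a chromodomain protein that binds that mark. The BPC complex joins the BAH-domain protein AIPP3, the PHD-finger proteins AIPP2 and PAIPP2 and the phosphatase CPL2, which removes phosphate from the C-terminal domain of RNA polymerase II. Its BAH domain reads H3K27me3 and its PHD fingers read unmethylated H3K4. Each set therefore held a mutant in a protein that binds H3K27me3, AIPP3 in the BPC set and LHP1 in the Polycomb set.

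The alleles *aipp2-1*, *aipp3-1* and *cpl2-2* are T-DNA insertions, *paipp2-1* was made by CRISPR/Cas9, and the kind of mutation in *clf-81* and *lhp1-3* is not given in the sources used here. Each gene was represented by 1 allele, so the loss of a gene and any other difference of its line cannot be told apart. Transcript levels are given as FPKM, fragments per kilobase of transcript, scaled to the depth of the library. *AIPP3* had 5.99 and 4.84 FPKM in *aipp3-1* and 22.76 and 23.57 FPKM in Col-0. *CPL2* had 6.01 and 6.12 FPKM in *cpl2-2*, and *AIPP2* had 1.38 and 1.36 FPKM in the double mutant. In the single mutant *aipp2-1*, however, *AIPP2* had 3.67 and 4.21 FPKM, against 5.24 and 5.44 FPKM in Col-0. The transcript of *PAIPP2* was still at 9.28 and 6.62 FPKM in the double mutant, that of *CLF* at 7.05 and 8.11 FPKM in *clf-81* and that of *LHP1* at 6.29 and 6.45 FPKM in *lhp1-3*. For these alleles and for *aipp2-1* the transcript level is a weak check of the label.

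The steps between low FPKM values corresponded to 19200000 to 27100000 fragments in the 10 libraries. Log levels in libraries of 1 genotype correlated across genes at 0.987 to 0.992, except for the double mutant at 0.942. Library 1 of the double mutant stood apart in genes of light harvesting, whose summed level was 2789 FPKM against 6879 FPKM in library 2. All 10 root markers were detected in every library, with sums of 104 to 153 FPKM in the BPC mutants and 101 to 126 FPKM in the Polycomb mutants. In whole seedlings, fewer cells of a type and less RNA per cell cannot be told apart. A total of 6146 genes were listed at 0 in all 16 libraries. They included genes that seedlings use, such as *LHCB4.1* and *MYC2*, so a value of 0 may be a failed estimate and these genes are not interpreted.

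Genes were called where limma gave an adjusted p under 0.05 and the means differed by at least 2-fold on the log2(FPKM + 0.5) scale, on which all folds below are given and which understates changes of low genes. Of 19895 genes tested, 739 (3.71%) were called higher and 448 (2.25%) lower in the BPC mutants. The labels do not say whether 2 libraries of a genotype came from separate cultures, so the p-values measure the spread between these libraries, which may be technical. With the genotype means as the units of the test, so that 3 values were set against 2, 74 genes were called higher and 41 lower, all of them also called with libraries as the units. Of the called genes 62.3% were higher in the BPC mutants, and this share was 51.5% after quantile normalization (580 higher, 547 lower) and 54.1% after median-ratio scaling (630 higher, 535 lower). Over all genes tested the median log2 difference was 0.09. A gene was tested where it reached 1 FPKM in 2 or more of the 16 libraries, and 129 of the 739 genes did so only with the BPC libraries counted and 93 of the 448 only with the Polycomb libraries counted, so that a call for these is partly set by the minimum.

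All 6 BPC libraries were above all 4 Polycomb libraries for 2546 genes (12.8%) and below them for 1376 (6.92%). Most of these gaps were narrow, with a median of 0.16 on the log2 scale for the former and -0.14 for the latter. The libraries were at least 2-fold apart for 120 genes (0.603%) in the first direction and for 53 genes (0.266%) in the second. Both criteria, the call and the lack of overlap, were met by 587 genes (2.95%) higher and 329 genes (1.65%) lower in the BPC mutants, and 152 and 119 called genes had ranges that overlapped. Each of the 6 pairs of a BPC and a Polycomb genotype gave the same call for 190 genes (0.955%) higher and 83 genes (0.417%) lower.

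**Figure D1:**
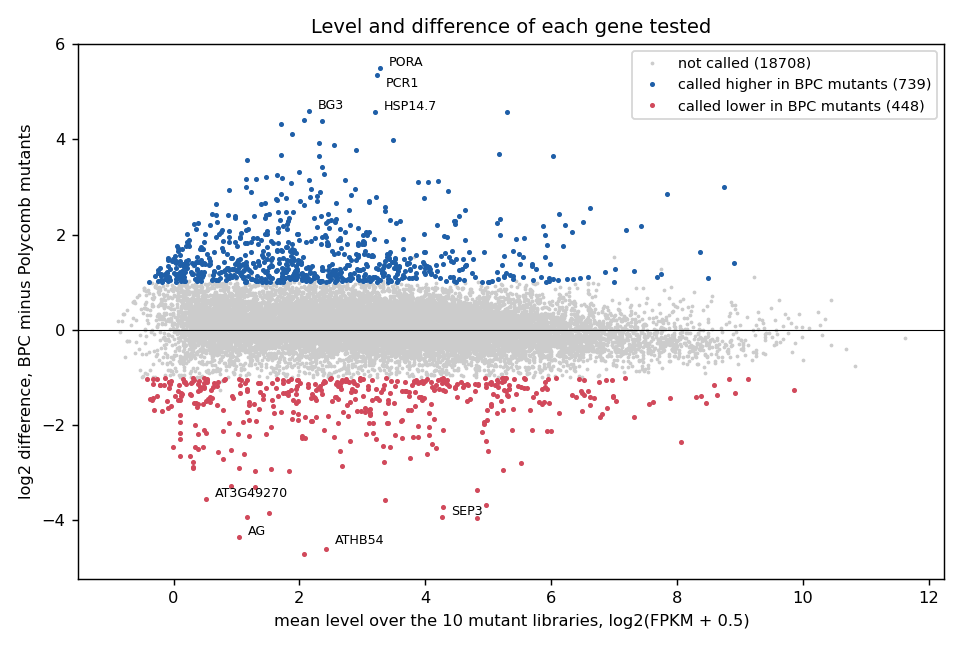
Each point is 1 of the 19895 genes tested, with its mean level over the 10 mutant libraries on the x axis, as log2(FPKM + 0.5), and the log2 difference between the BPC and the Polycomb mutants on the y axis. The 739 genes called higher in the BPC mutants are blue and the 448 called lower are red, and the genes with the widest gaps between the libraries of the sets are named.

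*PORA* had the widest gap of all genes higher in the BPC mutants. It encodes a protochlorophyllide reductase, which makes chlorophyllide in the light and is known from dark-grown seedlings. Its level was 52.64 and 66.82 FPKM in the double mutant, 44.38 and 36.22 in *cpl2-2*, 40.3 and 31.47 in *aipp3-1*, 0.58 and 0.25 in *lhp1-3* and 0.7 and 0.47 in *clf-81*, with 0.25 and 0.22 in Col-0. Every BPC library was far above every other library, and the Polycomb mutants lay near Col-0 (log2 difference 5.49, standard error 0.14, limma adjusted p = 1.4e-09). It was the only one of 13 tested genes of light harvesting and protochlorophyllide reduction that was called. The median of that list was 0.49, and its summed level was 2789 to 8913 FPKM in the BPC and 3862 to 5356 FPKM in the Polycomb libraries.

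*PCR1* encodes a membrane protein known for cadmium resistance. Its level was 42.57 and 39.06 FPKM in the double mutant, 41 and 53.86 in *cpl2-2*, 33.96 and 38.65 in *aipp3-1*, 0.08 and 0.45 in *lhp1-3* and 1.46 and 0.48 in *clf-81*, with 1.79 and 1.77 in Col-0. The BPC libraries lay close together, and all Polycomb libraries were below both Col-0 libraries (log2 difference 5.36, standard error 0.44, limma adjusted p = 3.3e-06). *HSP14.7*, annotated as a small heat-shock protein, had 42.73 and 67.65 FPKM in the double mutant, 32.87 and 34.42 in *cpl2-2*, 18.66 and 17.45 in *aipp3-1*, 0.88 and 1.06 in *lhp1-3* and 0.68 and 0.86 in *clf-81*, with 0.28 and 0.97 in Col-0. Its Polycomb libraries were within or near the range of Col-0 and the double mutant was highest (log2 difference 4.58, standard error 0.17, limma adjusted p = 1.1e-08). *BG3*, a beta-glucanase of the pathogenesis-related type, had 27.65 and 30.12 FPKM in the double mutant, 11.02 and 13.67 in *cpl2-2*, 13.82 and 7.44 in *aipp3-1*, 0.11 and 0.12 in *lhp1-3* and 0.15 and 0.26 in *clf-81*, with 0.2 and 2.14 in Col-0. Here the Col-0 libraries were far apart from each other, and the Polycomb libraries were all below the BPC libraries (log2 difference 4.59, standard error 0.34, limma adjusted p = 1.9e-06).

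At the other end, *SEP3* had the widest gap among genes lower in the BPC mutants. It encodes a MADS-domain protein that acts with the other floral organ identity proteins. Its level was 5.37 and 6.22 FPKM in the double mutant, 8.61 and 7.38 in *cpl2-2*, 5.01 and 4.11 in *aipp3-1*, 89.55 and 91.14 in *lhp1-3* and 108 and 102 in *clf-81*, with 1.4 and 3.16 in Col-0. The 4 Polycomb libraries lay together, far above every BPC library (log2 difference -3.92, standard error 0.15, limma adjusted p = 1.4e-08). *ATHB54*, a homeodomain-leucine zipper gene, had 1.48 and 0.67 FPKM in the double mutant, 1.54 and 0.76 in *cpl2-2*, 0.91 and 0.85 in *aipp3-1*, 18.3 and 18.01 in *lhp1-3* and 67.21 and 74.14 in *clf-81*, with 0.8 and 0.85 in Col-0. All BPC libraries were near Col-0, and *clf-81* was well above *lhp1-3* (log2 difference -4.6, standard error 0.16, limma adjusted p = 5.7e-09). *AT3G49270*, annotated as extensin-like, was listed at 0 in 4 of 6 BPC libraries and had at most 0.15 FPKM in the others, against 5.27 to 6.43 FPKM in the Polycomb libraries.

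The region from 250 bases before to 50 bases after the start of these 6 genes is printed to show the sequence at both ends of the ranking. The sequences are from RefSeq (TAIR10.1), each on the strand of its gene. They lie at chr5:21992765-21993064 (minus strand) for *PORA*, chr1:5133811-5134110 (minus) for *PCR1*, chr5:19300454-19300753 (minus) for *HSP14.7*, chr1:8596074-8596373 (minus) for *SEP3*, chr1:9391359-9391658 (plus) for *ATHB54* and chr3:18268222-18268521 (minus) for *AT3G49270*. Capitals mark matches on either strand to the telobox AAACCCTA, the repeat motif GAGAGA, the W-box core motif TTGAC or the G-box motif CACGTG.
PORA: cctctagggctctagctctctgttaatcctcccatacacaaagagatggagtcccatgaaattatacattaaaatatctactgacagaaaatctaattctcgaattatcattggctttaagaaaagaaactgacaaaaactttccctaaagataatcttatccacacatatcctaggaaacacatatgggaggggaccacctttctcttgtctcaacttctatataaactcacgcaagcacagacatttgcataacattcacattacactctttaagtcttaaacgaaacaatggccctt
PCR1: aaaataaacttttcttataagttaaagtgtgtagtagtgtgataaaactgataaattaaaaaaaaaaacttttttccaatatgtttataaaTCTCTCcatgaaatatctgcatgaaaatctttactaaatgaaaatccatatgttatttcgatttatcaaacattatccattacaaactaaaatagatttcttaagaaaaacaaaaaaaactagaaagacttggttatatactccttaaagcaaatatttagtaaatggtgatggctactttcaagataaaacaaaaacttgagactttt
HSP14.7: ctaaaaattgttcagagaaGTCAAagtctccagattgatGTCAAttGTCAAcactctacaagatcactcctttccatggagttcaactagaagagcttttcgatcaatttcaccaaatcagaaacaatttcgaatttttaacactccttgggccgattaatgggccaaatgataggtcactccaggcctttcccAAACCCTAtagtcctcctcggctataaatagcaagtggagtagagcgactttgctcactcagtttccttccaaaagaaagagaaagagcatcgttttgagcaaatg
SEP3: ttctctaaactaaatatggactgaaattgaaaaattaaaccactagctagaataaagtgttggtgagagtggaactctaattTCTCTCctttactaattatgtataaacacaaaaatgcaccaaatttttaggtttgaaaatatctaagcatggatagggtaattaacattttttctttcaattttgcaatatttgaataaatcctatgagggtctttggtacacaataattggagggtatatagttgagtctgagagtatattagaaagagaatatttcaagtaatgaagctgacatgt
ATHB54: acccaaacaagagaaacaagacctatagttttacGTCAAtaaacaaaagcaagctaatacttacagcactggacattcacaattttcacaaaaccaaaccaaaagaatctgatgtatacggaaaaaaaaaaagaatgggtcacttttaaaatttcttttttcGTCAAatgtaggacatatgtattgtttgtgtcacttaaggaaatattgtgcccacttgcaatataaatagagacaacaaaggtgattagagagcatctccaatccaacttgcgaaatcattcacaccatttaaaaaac
AT3G49270: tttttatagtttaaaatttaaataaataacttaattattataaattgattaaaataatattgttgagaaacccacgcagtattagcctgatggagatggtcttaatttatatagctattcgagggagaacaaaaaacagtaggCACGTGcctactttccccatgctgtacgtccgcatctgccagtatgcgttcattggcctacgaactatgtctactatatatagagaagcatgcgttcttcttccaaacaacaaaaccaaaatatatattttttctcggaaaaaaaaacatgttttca

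The telobox was matched in *HSP14.7* alone of these 6, and 6.22% of 27431 promoters of this length held it. GAGAGA was matched in *PCR1* and *SEP3*, that is on both sides of the comparison, and in 29.2% of all promoters. TTGAC was matched at 3 places in *HSP14.7* and 2 in *ATHB54*, and in 50.5% of all promoters, and CACGTG once in *AT3G49270* and in 7.68% of all. *PORA* had no match. A match is a run of letters and was not tested as a binding site.

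Of the 12 genes higher in the BPC mutants with the widest gaps, several encode proteins of the plant surface or of immunity. *CRK4* (AT3G45860) and *CRK6* (AT4G23140) encode cysteine-rich receptor-like kinases. *CRK4* had 37.28 and 17.45 FPKM in the double mutant, 13.42 and 13.79 in *cpl2-2*, 8.69 and 7.56 in *aipp3-1*, 0.82 and 0.83 in *lhp1-3* and 0.28 and 0.14 in *clf-81*, with 1.9 and 2.21 in Col-0, and *CRK6* had 7.43 to 35.18 FPKM in the BPC and 0.38 to 0.9 FPKM in the Polycomb libraries. *ACD6* encodes an ankyrin-repeat membrane protein that promotes salicylic acid signalling and cell death. It had 60.16 and 60.9 FPKM in the double mutant, 30.88 and 24.63 in *cpl2-2*, 24.54 and 24.05 in *aipp3-1*, 3.67 and 3.44 in *lhp1-3* and 3.61 and 3.38 in *clf-81*, with 8.57 and 12.67 in Col-0, so that Col-0 lay between the sets (log2 difference 3.12, standard error 0.13, limma adjusted p = 2.2e-08). *AtRLP23*, a receptor-like protein that recognises a microbial peptide, had 7.54 to 77.43 FPKM in the BPC and 0.47 to 0.88 in the Polycomb libraries. *AED1*, an aspartyl protease of systemic immunity, had 19.45 to 59.31 FPKM against 0.76 to 2.95 FPKM. In *AtRLP23*, *AT1G13470* (7.33 to 72.96 against 0.05 to 0.76 FPKM) and the leucine-rich repeat kinase gene *AT1G35710* (27.55 to 140.3 against 4.21 to 4.75 FPKM), library 1 of the double mutant was the highest and more than 2-fold above library 2.

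*AT1G75945*, of unknown function, was an exception. It had 20.47 and 10.83 FPKM in the double mutant, 18.43 and 18.02 in *cpl2-2*, 3.89 and 3.94 in *aipp3-1*, 0 in both libraries of *lhp1-3* and 0.18 and 0 in *clf-81*, with 17.85 and 19.08 in Col-0. Its BPC libraries were thus near or below Col-0, and its Polycomb libraries were listed at or close to 0 (log2 difference 4.33, standard error 0.15, limma adjusted p = 5.7e-09).

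The remaining genes lower in the BPC mutants with the widest gaps had all Polycomb libraries above both Col-0 libraries. *AG*, the MADS-box gene of stamen and carpel identity, had 0.1 and 0 FPKM in the double mutant, 0.13 and 0.24 in *cpl2-2*, 0.06 and 0.19 in *aipp3-1*, 5.47 and 5.05 in *lhp1-3* and 27.01 and 26.72 in *clf-81*, with 0.14 and 0.08 in Col-0. It was near 0 in all BPC and Col-0 libraries and several times higher in *clf-81* than in *lhp1-3* (log2 difference -4.35, standard error 0.12, limma adjusted p = 2.9e-09). *AP3*, needed for petal and stamen identity, was at 0.15 to 1.16 FPKM in the BPC and 7.47 to 10.91 FPKM in the Polycomb libraries. *LTP3*, a lipid transfer protein, had 6.17 and 19.53 FPKM in the double mutant, 14.05 and 6.68 in *cpl2-2*, 13.36 and 9.95 in *aipp3-1*, 100.3 and 95.09 in *lhp1-3* and 202 and 212 in *clf-81*, with 6.57 and 11.86 in Col-0, and the lowest Polycomb library was well above every other library (reads shared with its close copy may be split between them). The hydrolase gene *AT5G39220* had 0.42 to 1.27 FPKM in the BPC and 11.91 to 75.59 FPKM in the Polycomb libraries, and the cystatin-related gene *AT1G03710* had 0.33 to 0.74 against 7.62 to 23.52 FPKM. *GILT* (AT4G12960), *GATA13* and *SUGTL5*, a putative sugar transporter, had log2 differences of -2.77, -2.89 and -2.86. The last of the 12, MSTRG.15638, is a feature of the deposited table with no gene name (-2.78).

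**Figure D2:**
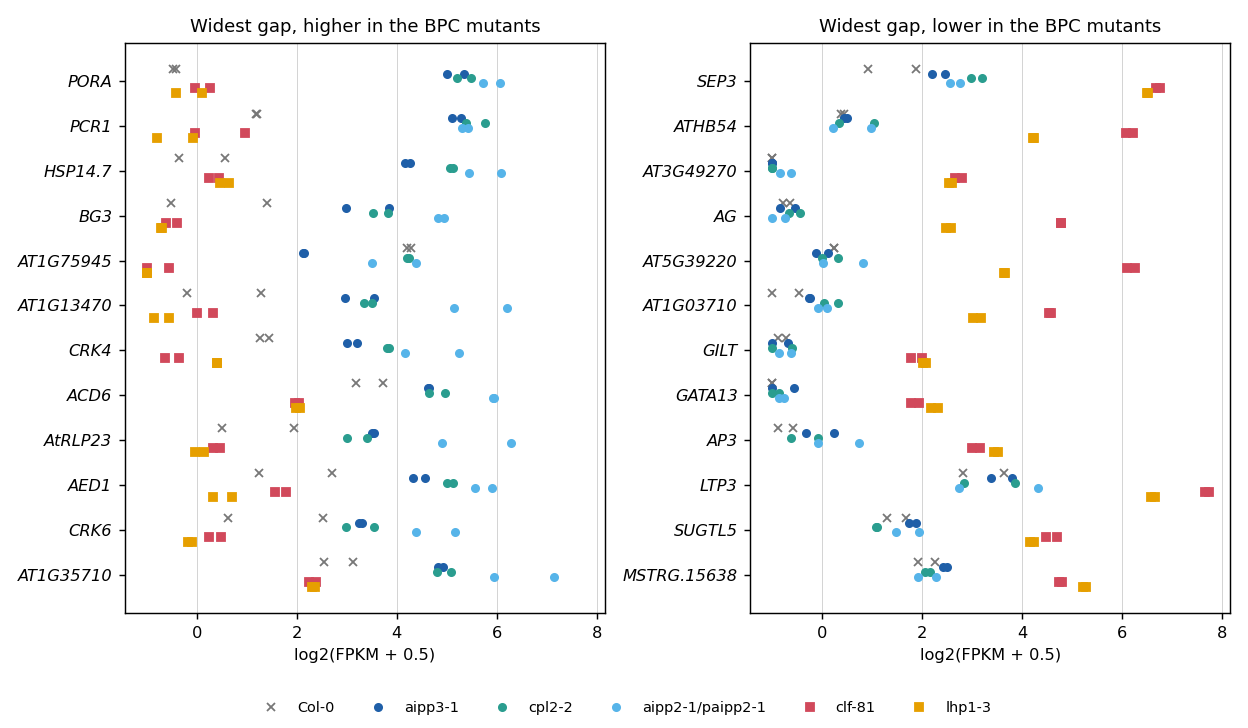
Level of the 12 genes with the widest gap in each direction, as log2(FPKM + 0.5) on the x axis, with 1 mark per library. BPC libraries are blue or green circles, Polycomb libraries are red or orange squares and Col-0 libraries are grey crosses. In every row the circles and squares are apart, and AT1G75945 is the row on the left in which the crosses lie among the higher circles.

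The side of Col-0 on which a gene moved differed between the directions. Against Col-0, 751 genes (3.77%) were higher and 47 (0.236%) lower in the BPC mutants, and 813 (4.09%) were higher and 373 (1.87%) lower in the Polycomb mutants, and both comparisons used the same 2 Col-0 libraries. Of the 739 genes higher in BPC than in Polycomb mutants, 341 (46.1%) were called above Col-0 in the BPC mutants without being called below it in the Polycomb mutants. Another 179 (24.2%) were called below Col-0 in the Polycomb mutants without being called above it in the BPC mutants, and 11 of these were called below it in both sets. The rest were 14 (1.89%) on opposite sides of Col-0 and 205 (27.7%) called in neither way. Of the 448 lower genes, 369 (82.4%) were called above Col-0 in the Polycomb mutants and not below it in the BPC mutants, 4 were called only below Col-0 in the BPC mutants, and 1, *CYP82C4*, lay on opposite sides. Genes called higher than Col-0 in both sets numbered 175, and 12 of them were among the 739 and 22 among the 448.

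Genes in both directions had low levels in the wild type. The median in Col-0 was 2.82 FPKM for the 739 higher genes and 3.65 FPKM for the 448 lower genes, against 9.39 FPKM for all genes tested. Levels under 1 FPKM were found for 207 (28.0%) and 128 (28.6%) of them and for 1682 (8.45%) of all. These shares are partly set by the minimum level. It was reached by 129 of the 739 only with the BPC libraries counted and by 93 of the 448 only with the Polycomb libraries counted.

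**Figure D3:**
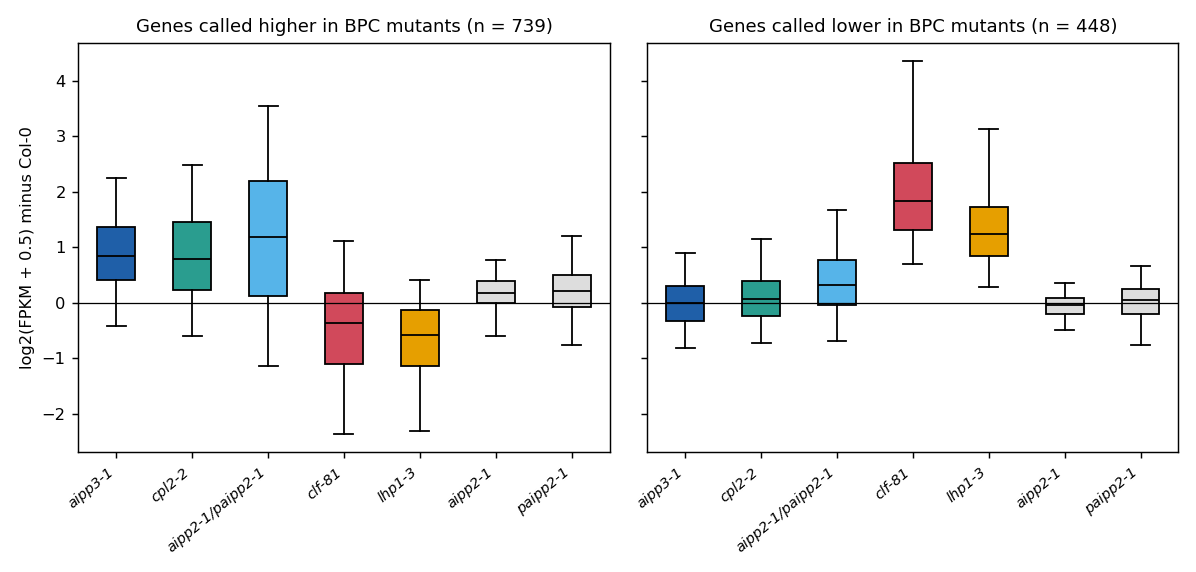
Log2 difference from Col-0 in each of the mutant genotypes for the genes called higher and the genes called lower in the BPC mutants. Boxes span the quartiles, the line is the median and the whiskers reach the 5th and 95th percentiles. The median of the higher genes is between 0.79 and 1.18 in the BPC genotypes and below 0 in clf-81 and lhp1-3.

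The double mutant most often had the highest mean among the higher genes, and *clf-81* among the lower ones. Among the 739 higher genes the highest mean was that of *aipp2-1/paipp2-1* for 424 (57.4%), of *aipp3-1* for 202 (27.3%) and of *cpl2-2* for 113 (15.3%). The lowest BPC mean was that of the double mutant for 182, of *aipp3-1* for 277 and of *cpl2-2* for 280. The double mutant also had the widest spread between its libraries (median absolute log2 difference 0.40). Shares over all genes were not computed. Among the 448 lower genes it was that of *clf-81* for 332 (74.1%) and of *lhp1-3* for 116 (25.9%). The medians of the lower genes against Col-0 were 1.84 in *clf-81* and 1.23 in *lhp1-3*. Within the BPC set the genotype means of the higher genes spanned at least 2-fold for 347 (47.0%), and within the Polycomb set those of the lower genes did so for 176 (39.3%).

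Each pair of genotypes was also compared on its own. Against *clf-81*, *aipp3-1* had 1059 genes higher (5.32%) and 844 lower (4.24%), *cpl2-2* had 788 (3.96%) and 812 (4.08%), and the double mutant had 1193 (6%) and 814 (4.09%). Against *lhp1-3* the counts were 1147 (5.77%) and 555 (2.79%) for *aipp3-1*, 831 (4.18%) and 462 (2.32%) for *cpl2-2*, and 1213 (6.1%) and 396 (1.99%) for the double mutant. Between genotypes of 1 set the difference was smallest for *aipp3-1* and *cpl2-2*, with 152 genes higher (0.764%) and 86 lower (0.432%) in *aipp3-1*. The double mutant had 592 genes higher (2.98%) and 536 lower (2.69%) than *aipp3-1*, and 450 (2.26%) and 199 (1%) against *cpl2-2*. *clf-81* had 655 genes higher (3.29%) and 177 lower (0.89%) than *lhp1-3*. Every pair across the sets had more calls in all than any pair within a set. These contrasts share genotypes and are not independent of each other.

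**Figure D4:**
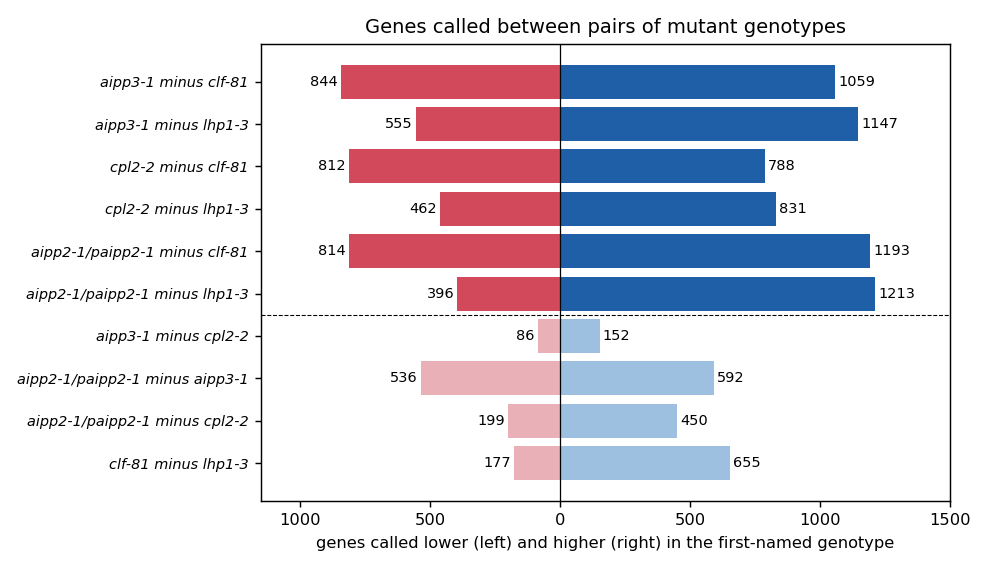
Number of genes called higher and lower in each pair of genotypes, for the 6 pairs across the sets and the 4 pairs within them. The pair aipp3-1 and cpl2-2 has the fewest calls, 152 and 86, and the pair of the double mutant and lhp1-3 has the most genes higher, 1213.

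The single mutants took no part in choosing these genes. Against Col-0, *aipp2-1* had 1 gene called higher (0.00503%) and 0 lower by limma over all genes tested, while an unadjusted p under 0.05 was reached by 477 genes higher and 249 lower. In *paipp2-1*, 26 (0.131%) were called higher and 7 (0.0352%) lower. Of the 739 genes, 0 were called in *aipp2-1*, while 15 were called higher and 1 lower in *paipp2-1*. Their median log2 difference was 0.18 in *aipp2-1* and 0.21 in *paipp2-1*, against 0.05 and 0.01 for all genes, and 73.2% and 67.4% of them were above 0, against 63.5% and 53.1% of all genes. For the 448 lower genes the medians were -0.04 and 0.04. *PORA* had 1.13 and 1.59 FPKM in *aipp2-1* and 5.72 and 5.97 FPKM in *paipp2-1*, which is above Col-0 and below the double mutant. *HSP14.7* had 2.86 and 3.34 FPKM in *paipp2-1*.

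Genes of salicylic acid signalling and systemic immunity were higher in the BPC mutants. This hormone pathway restricts pathogens that feed on living cells. Of 22 tested members of the list 16 were called higher and 0 lower, against 3.71% and 2.25% of all genes tested. The median was 1.53, and 3 of the 16 reached the minimum level only with the BPC libraries counted. Of the 22, 17 were called above Col-0 in the BPC mutants while 1 was above and 1 below it in the Polycomb mutants. The count was 10 without *lhp1-3*, and with genotype means as the units it was 3. The summed level of the list was 359 to 1178 FPKM in the BPC libraries, 238 and 343 FPKM in *clf-81* and 110 FPKM in both *lhp1-3* libraries, with 117 and 169 FPKM in Col-0.

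*WRKY70*, a transcription factor of the pathway, had 55.94 and 31.93 FPKM in the double mutant, 50.79 and 44.56 in *cpl2-2*, 50.15 and 42.56 in *aipp3-1*, 3.18 and 2.95 in *lhp1-3* and 10.05 and 9.74 in *clf-81*, with 11.21 and 8.98 in Col-0. All BPC libraries were above all others, and *lhp1-3* was below Col-0 (log2 difference 2.91, standard error 0.17, limma adjusted p = 3.4e-07). *PR2*, a secreted beta-glucanase and marker of the pathway, had 131 and 111 FPKM in the double mutant, 108 and 155 in *cpl2-2*, 71.48 and 53.78 in *aipp3-1*, 1.77 and 1.27 in *lhp1-3* and 17.82 and 47.72 in *clf-81*, with 18.24 and 33.37 in Col-0. Its lowest BPC library was only just above library 2 of *clf-81*, and *lhp1-3* was far below both (log2 difference 3.69, standard error 0.36, limma adjusted p = 1.2e-05). *PR1*, the most used marker of the pathway, had 474 and 728 FPKM in the double mutant, 342 and 330.3 in *cpl2-2*, 98.54 and 81.68 in *aipp3-1*, 31.65 and 32.99 in *lhp1-3* and 83.69 and 152 in *clf-81*, with 14.36 and 28.04 in Col-0, so that *clf-81* overlapped *aipp3-1* (log2 difference 2.1, standard error 0.42, limma adjusted p = 0.0019). Without *lhp1-3* *PR1* was not called (log2 difference 1.21, limma adjusted p = 0.11). *SARD1*, a regulator of salicylic acid synthesis, and *FMO1*, which makes the systemic signal N-hydroxypipecolic acid, had log2 differences of 2.84 and 2.85, and neither overlapped between the sets. *ICS1*, the synthase of the main salicylic acid route, had 13.56 to 26.78 FPKM in the BPC and 5.58 to 7.34 FPKM in the Polycomb libraries (1.35). The Col-0 libraries differed about 2-fold from each other in *PR1* and *PR5*.

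The annotated families below were chosen after the values were seen. Over all genes tested 3.71% were called higher and 2.25% lower. Of 31 tested genes for cysteine-rich receptor kinases 12 (38.7%) were called higher and 0 lower, of 36 receptor-like proteins 10 (27.8%) and 0, of 11 wall-associated kinases 6 (54.5%) and 0, and of 106 TIR-NBS-LRR and related disease resistance proteins 11 (10.4%) and 0. *WAK1* had 111 and 97.1 FPKM in the double mutant, 43.27 and 61.05 in *cpl2-2*, 48.61 and 54.66 in *aipp3-1*, 8.98 and 7.53 in *lhp1-3* and 20.65 and 21.99 in *clf-81*, with 9.5 and 19.83 in Col-0, and *clf-81* was closest to the BPC libraries (log2 difference 2.25, standard error 0.20, limma adjusted p = 6.0e-06). Against the same shares of all genes, 10 (16.9%) of 59 WRKY genes were called higher and 1 (1.69%) lower, the last being *WRKY18*, and of 71 NAC genes 8 (11.3%) and 0. *WRKY18* had 82.61 and 38.99 FPKM in the double mutant, 14.74 and 19.17 in *cpl2-2*, 13.83 and 17.33 in *aipp3-1*, 30.18 and 30.16 in *lhp1-3* and 91.92 and 109 in *clf-81*, with 15.53 and 14.82 in Col-0, so that *clf-81* was highest and the double mutant overlapped the Polycomb libraries (log2 difference -1.15, standard error 0.17, limma adjusted p = 2.6e-04). Reads of near-identical family members may be assigned to the wrong copy, so counts within clusters are uncertain.

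The annotation used gave a biological-process term to 16640 of the tested genes, 598 of the higher and 380 of the lower genes. Among these, defense response was held by 65 (10.9%) of the higher and 21 (5.53%) of the lower genes, against 3.51% of the tested genes. For systemic acquired resistance, 12 of 36 genes with the term were called higher and 0 lower, against 3.71% and 2.25% of all genes tested. No enrichment test was made, since the genes were chosen by the same comparison.

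In the seed maturation list, *CRA1* and *CRU3* were higher in the BPC mutants, with the highest levels in the double mutant. Of the 20 members 8 were too low to be tested, and of the other 12, 7 were called higher and 0 lower (3.71% and 2.25% of all genes tested). The count is no measure of the list, because 5 of the 12 reached the minimum level only with the BPC libraries counted and 4 of these were among the 7. Of the 7 members that reached it without them 3 were called higher. The summed level of the list was 118 and 254 FPKM in the double mutant, 16.1 and 40.6 FPKM in *cpl2-2* and 10.03 and 16.67 FPKM in *aipp3-1*, against 5.53 to 7.66 FPKM in the Polycomb and 3.24 and 3.80 FPKM in the Col-0 libraries. In *paipp2-1* the sums were 61.4 and 15.7 FPKM, and in *aipp2-1* 4.49 and 3.46 FPKM. Without the double mutant 4 members were called, with a minimum of 5 FPKM 3, and with genotype means as units 0. *CRA1*, a cruciferin stored in the seed, had 38.72 and 80.3 FPKM in the double mutant, 4.17 and 23.64 in *cpl2-2*, 2.48 and 7.48 in *aipp3-1*, 0.28 and 0.27 in *lhp1-3* and 0.11 and 0.07 in *clf-81*, with 0.03 and 0.04 in Col-0. The libraries of a genotype differed up to several-fold from each other, but every BPC library was above every Polycomb library (log2 difference 4.4, standard error 0.47, limma adjusted p = 2.5e-05). *CRU3*, another cruciferin, had 0.4 to 69.06 FPKM in the BPC libraries and at most 0.02 FPKM in the Polycomb libraries. The regulators *ABI3*, *FUS3*, *LEC1* and *LEC2* were below 0.4 FPKM in all 10 libraries and were not tested.

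Of 8 tested genes of heat shock and endoplasmic reticulum stress, 4 were called higher and 0 lower (3.71% and 2.25% of all genes tested), with a median of 0.59, and 1 of the 4 reached the minimum level only with the BPC libraries counted. Beside *HSP14.7* these were *SEC31A*, *BIP3* and *HSFA2*, and the other 6 of 14 members of the list were too low to be tested. The study named *SEC31A* from these same samples, and *HSP14.7* is a widest-gap gene of this comparison. The count is therefore not independent evidence. *SEC31A*, which encodes a coat protein of vesicles leaving the endoplasmic reticulum, had 33.21 and 22.93 FPKM in the double mutant, 16.13 and 15.71 in *cpl2-2*, 2.4 and 3.25 in *aipp3-1*, 0.18 and 0.31 in *lhp1-3* and 0.1 and 0.08 in *clf-81*, with 0.03 and 0.06 in Col-0. The order of the BPC genotypes was the same in all libraries, with the double mutant highest and *aipp3-1* lowest (log2 difference 4.12, standard error 0.13, limma adjusted p = 4.4e-09). *BIP3*, a chaperone of the endoplasmic reticulum, had 5.39 to 24.12 FPKM in the BPC and 0.66 to 1.28 FPKM in the Polycomb libraries (2.95). *HSFA2*, a heat-shock transcription factor, had 2.86 to 6.98 against 1.68 to 2.65 FPKM (1.07).

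*AGO5* and *SUC5*, which the study chose on these samples, were called as well, so their direction is not independent evidence. *AGO5*, an Argonaute protein, had 4.34 and 4.58 FPKM in the double mutant, 1.34 and 1.19 in *cpl2-2*, 0.25 and 0.26 in *aipp3-1*, 0.07 and 0.11 in *lhp1-3* and 0.05 and 0 in *clf-81*, with 0.08 and 0.04 in Col-0, and the sets did not overlap although *aipp3-1* was close to the Polycomb libraries (log2 difference 1.75, standard error 0.12, limma adjusted p = 9.5e-07). *SUC5*, a sucrose transporter known from the endosperm, had 12.83 and 24.91 FPKM in the double mutant, 11.17 and 10.19 in *cpl2-2*, 3.73 and 2.46 in *aipp3-1*, 1.32 and 1.35 in *lhp1-3* and 1.29 and 1.08 in *clf-81*, with 0.19 and 0.46 in Col-0. Its Polycomb libraries were above Col-0 and below every BPC library (log2 difference 2.36, standard error 0.18, limma adjusted p = 1.9e-06). Their neighbours *AT2G27900* and *AT1G71900* had log2 differences of 0.48 and 0.14 and were not called.

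In the list of floral organ identity, all called genes were lower in the BPC mutants. Of 12 tested members 0 were called higher and 9 lower, against 3.71% and 2.25% of all genes tested. The count is no measure of the list, because 8 of the 12 reached the minimum level only with the Polycomb libraries counted. Of these 8, 7 were called lower, and 2 of the other 4 were called lower. Of the 12, 11 were called above Col-0 in the Polycomb mutants and 3 in the BPC mutants. The summed level of the list was 13.75 to 24.06 FPKM in the BPC libraries, 147.56 to 170.44 FPKM in the Polycomb libraries and 6.3 and 8.62 FPKM in Col-0. With genotype means as units 3 were called. Beside *SEP3*, *AG* and *AP3*, the called members were *PI*, *SEP1*, *SEP2*, *SHP1*, *SHP2* and *STK*. *SEP1* had 0.61 and 0.66 FPKM in the double mutant, 0.44 and 0.38 in *cpl2-2*, 0.32 and 0.28 in *aipp3-1*, 11.77 and 10.13 in *lhp1-3* and 1.83 and 2.33 in *clf-81*, with 0.21 and 0.16 in Col-0, so that *lhp1-3* was well above *clf-81* (log2 difference -2.53, standard error 0.13, limma adjusted p = 1.7e-07). *SEP2* differed between the Polycomb mutants, with 0.24 and 0.62 FPKM in *clf-81* and 7.41 and 6.86 FPKM in *lhp1-3*, and one library of *clf-81* lay within the BPC range. *SHP2*, which acts in fruit and ovule development, had 4.45 and 4.69 FPKM in *clf-81*, 1.7 and 2.18 FPKM in *lhp1-3* and 0 to 0.35 FPKM in the BPC libraries.

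Not all MADS-box genes were lower. Of 40 tested, 3 (7.5%) were called higher and 11 (27.5%) lower, against 3.71% and 2.25% of all genes tested. The higher ones were *AT2G41470*, *SVP* and *MAF5*. *AT2G41470* had 12.2 and 11.2 FPKM in the double mutant, 5.24 and 3.69 in *cpl2-2*, 3.24 and 2.95 in *aipp3-1*, 0.15 and 0.06 in *lhp1-3* and 0.11 and 0.36 in *clf-81*, with 0.06 and 0.17 in Col-0, and its Polycomb libraries were at the level of Col-0 (log2 difference 3.18, standard error 0.15, limma adjusted p = 6.9e-08). *SVP*, a repressor of flowering, had 46.34 and 26.83 FPKM in the double mutant, 34.9 and 33.85 in *cpl2-2*, 37.93 and 35.3 in *aipp3-1*, 16.84 and 17.17 in *lhp1-3* and 10.24 and 11.42 in *clf-81*, with 25.88 and 29.06 in Col-0, so that both Polycomb mutants were below Col-0 (log2 difference 1.35, standard error 0.12, limma adjusted p = 6.2e-06). *MAF5* was listed at 5.36 and 3.99 FPKM in *clf-81* and 0.3 and 0.34 FPKM in *lhp1-3*, and *clf-81* overlapped the BPC libraries. Without *lhp1-3* the log2 difference of *MAF5* turned to -0.056 and it was not called.

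In the list of flowering time genes, 2 of 13 tested were called higher (*SVP* and *MAF5*) and 2 lower (*FT* and *FLC*), with a median of 0.11. Over all genes tested these shares were 3.71% and 2.25%. *FT*, the mobile signal of flowering, had 1.66 and 4.04 FPKM in the double mutant, 6.58 and 7.01 in *cpl2-2*, 3.18 and 1.73 in *aipp3-1*, 14.18 and 13.07 in *lhp1-3* and 9.25 and 6.16 in *clf-81*, with 0.82 and 1.75 in Col-0. Both sets were above Col-0 on average, and *clf-81* overlapped *cpl2-2* (log2 difference -1.4, standard error 0.24, limma adjusted p = 6.5e-04). *FLC*, a repressor of flowering and classical target of Polycomb, had 0.09 and 0 FPKM in the double mutant, 0 in both libraries of *cpl2-2*, 0.34 and 0.77 in *aipp3-1*, 0.88 and 0.74 in *lhp1-3* and 3.96 and 2.89 in *clf-81*, with 0.91 and 1.1 in Col-0, so that *clf-81* alone was above Col-0 and *lhp1-3* overlapped *aipp3-1* (log2 difference -1.78, standard error 0.16, limma adjusted p = 6.9e-06). *SOC1*, an activator of flowering, had 25.31 to 46.56 FPKM in the BPC and 17.73 to 19.92 FPKM in the Polycomb libraries and was not called (0.66). No call was made among the 4 tested meristem and boundary genes, whose log2 differences lay between -0.31 for *CUC3* and 0.11 for *KNAT6*, or among the 16 tested genes of the Polycomb machinery, between -0.28 for *MSI1* and 0.76 for *BMI1A*.

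Genes of the iron deficiency response were lower in the BPC mutants and mostly above Col-0 in the Polycomb mutants. Of 8 tested members 0 were called higher and 7 lower, against 3.71% and 2.25% of all genes tested, with a median of -2.27, and 7 were called above Col-0 in the Polycomb mutants. With genotype means as units 0 were called. *IRT1*, the main iron transporter of the root surface, had 52.87 and 44.85 FPKM in the double mutant, 23.67 and 24.33 in *cpl2-2*, 4.33 and 2.57 in *aipp3-1*, 190.1 and 187 in *lhp1-3* and 101 and 75.95 in *clf-81*, with 26.7 and 25.97 in Col-0. Within the sets the order was wide, with *aipp3-1* below Col-0, *cpl2-2* near it and the double mutant above it, and *lhp1-3* was the highest (log2 difference -2.95, standard error 0.21, limma adjusted p = 1.1e-06). *FRO2*, the ferric reductase that acts before *IRT1*, followed the same order with 21.95 and 18.02 FPKM in the double mutant, 7.85 and 8.7 in *cpl2-2*, 2.63 and 2 in *aipp3-1*, 77.02 and 73.27 in *lhp1-3* and 36.81 and 25.24 in *clf-81*, with 9.78 and 10.72 in Col-0 (log2 difference -2.61, standard error 0.14, limma adjusted p = 1.9e-07). *CYP82C4*, which makes an iron-mobilizing coumarin, had 26.94 and 18.07 FPKM in the double mutant, 9.28 and 9.67 in *cpl2-2*, 1.36 and 0.69 in *aipp3-1*, 147 and 142 in *lhp1-3* and 70.01 and 47.04 in *clf-81*, with 17.61 and 21.53 in Col-0, and of the 5 genotypes compared only *aipp3-1* and *cpl2-2* were below Col-0 in both libraries (log2 difference -3.72, standard error 0.22, limma adjusted p = 3.2e-07). The partner transcription factors *BHLH38*, *BHLH39* and *BHLH100* had log2 differences of -2.29, -2.19 and -2.24, and *FIT*, their common partner, -1.09. *BHLH38* and *BHLH39* are close copies and may share reads.

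Jasmonate genes were lower in the BPC mutants for the members below, and their levels were highest in *clf-81*. Jasmonate is the hormone of wounding and of defence against chewing insects. Of 15 tested members 0 were called higher and 4 lower (3.71% and 2.25% of all genes tested), with a median of -0.90, and 12 were called above Col-0 in the Polycomb mutants and 3 in the BPC mutants. Without *lhp1-3* 13 were called lower, and without *clf-81* 3 were called lower and 2 higher. The count was 7 without the double mutant, 7 after quantile normalization and 0 with genotype means as units. *VSP1*, a vegetative storage protein, had 5.38 and 10.84 FPKM in the double mutant, 10.4 and 10.52 in *cpl2-2*, 14.62 and 15.79 in *aipp3-1*, 29.3 and 28.98 in *lhp1-3* and 337 and 581 in *clf-81*, with 6.15 and 6.21 in Col-0, so that *lhp1-3* was about 2-fold above the highest BPC library and *clf-81* over 10-fold above *lhp1-3* (log2 difference -3.36, standard error 0.18, limma adjusted p = 2.0e-07). *VSP2* had a log2 difference of -2.8, and the 2 genes may share reads. *LOX2*, the lipoxygenase that starts jasmonate synthesis in the leaf, had 275 and 295 FPKM in the double mutant, 125 and 115 in *cpl2-2*, 88.38 and 67.23 in *aipp3-1*, 403 and 391 in *lhp1-3* and 1139.8 and 1425 in *clf-81*, with 45.83 and 127 in Col-0, and the double mutant was the closest to *lhp1-3* (log2 difference -2.36, standard error 0.24, limma adjusted p = 1.5e-05). *JAZ9*, a repressor of the pathway, was called at -1.03, although *lhp1-3* had 38.87 and 41.63 FPKM and overlapped the BPC libraries.

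**Figure D5:**
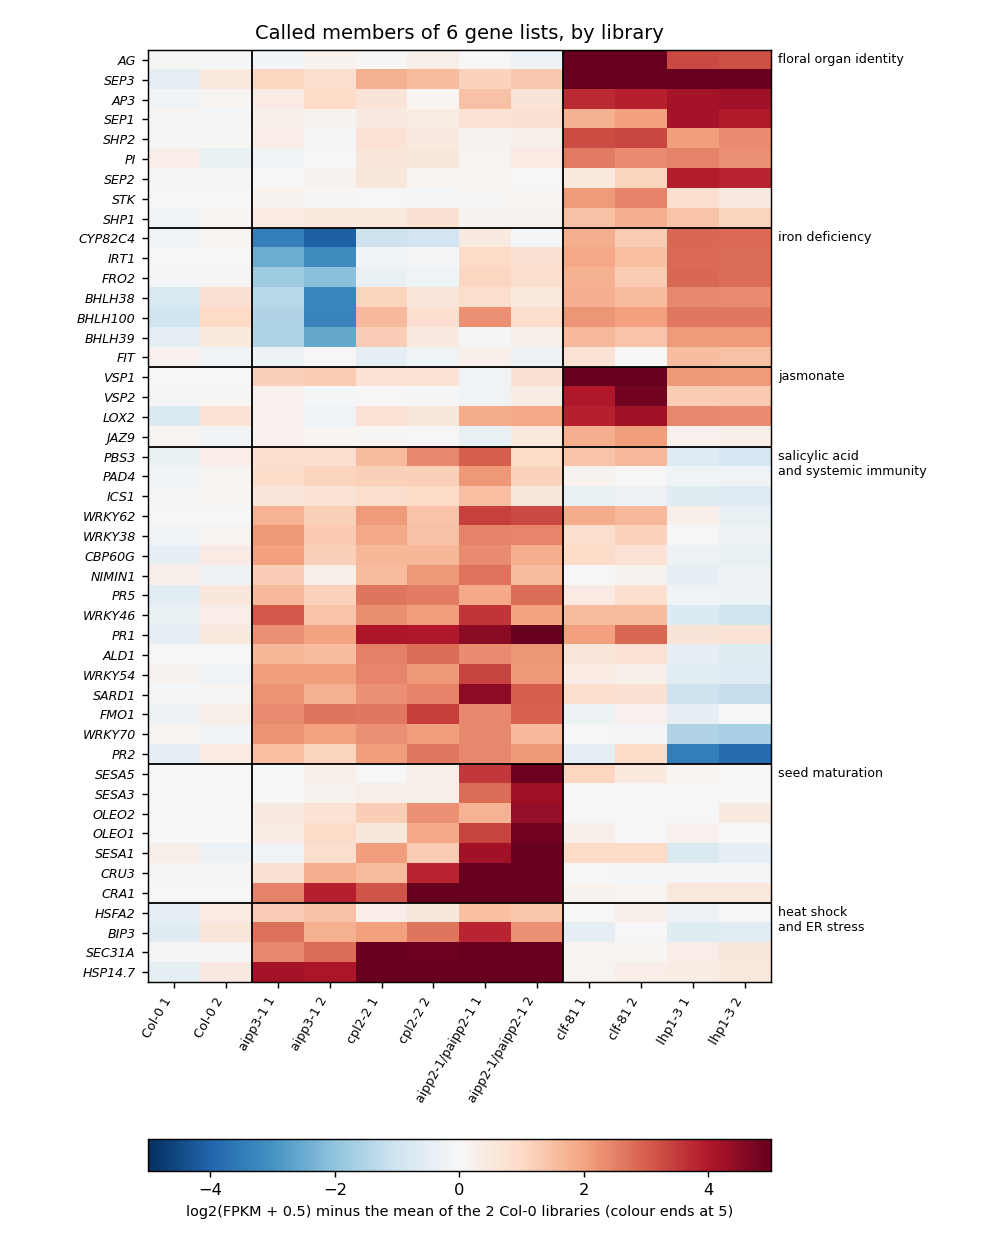
Called members of 6 gene lists in Col-0 and the 10 mutant libraries, coloured by log2(FPKM + 0.5) minus the mean of the 2 Col-0 libraries, red above and blue below it. Floral organ identity genes are red in clf-81 and lhp1-3, iron deficiency genes are blue in aipp3-1, jasmonate genes are deepest in clf-81, and seed maturation genes are deepest in the double mutant.

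Pathways of specialised metabolism that were not in the lists were found among the lower genes by their annotation, after the values were seen. Glucosinolates are sulphur compounds that deter herbivores, and 12 of 24 tested genes of their biosynthesis were called lower and 0 higher, against 2.25% and 3.71% of all genes tested. *CYP79F1*, which starts the core structure from elongated methionine, had 10 and 10.76 FPKM in the double mutant, 5.23 and 5.52 in *cpl2-2*, 4.48 and 2.99 in *aipp3-1*, 28 and 26.23 in *lhp1-3* and 63.65 and 60.23 in *clf-81*, with 1.97 and 3.98 in Col-0, and *clf-81* was above *lhp1-3* (log2 difference -2.69, standard error 0.18, limma adjusted p = 7.8e-07). *MAM1* and *BCAT4*, which act in chain elongation, had log2 differences of -1.77 and -1.58. *CYP79F1* and *CYP79F2* are close copies, and their shares of the reads are uncertain.

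Of 29 tested genes annotated to flavonoid biosynthesis 10 were called lower and 1, *DMR6*, higher, against the same shares of all genes. The 10 include *AT5G05600* and *JRG21*, the latter annotated as a jasmonate-regulated gene. These had 73.01 and 81.97 FPKM and 27.38 and 35.18 FPKM in *clf-81*, while *lhp1-3* lay within the range of the BPC libraries. *CHS*, the first enzyme of the pathway, had 156 and 235 FPKM in the double mutant, 69.52 and 85.2 in *cpl2-2*, 112 and 128 in *aipp3-1*, 412 and 415 in *lhp1-3* and 328 and 288 in *clf-81*, with 104 and 124 in Col-0, so that both Polycomb mutants were above all other libraries (log2 difference -1.56, standard error 0.11, limma adjusted p = 1.6e-06). *FLS1*, the flavonol synthase, had 15.98 to 41.39 FPKM in the BPC and 74.08 to 129 FPKM in the Polycomb libraries (-2.11). *DFRA* and *LDOX*, which lead to anthocyanin, were highest in *clf-81*, with log2 differences of -2.24 and -2.47, and the double mutant reached the level of *lhp1-3* in *DFRA*. It came close to it in *LDOX*, with 17.12 and 12.98 FPKM against 17.23 and 17.41 FPKM in *lhp1-3*. *DMR6*, an oxygenase that lowers salicylic acid, had 48.24 to 87.09 against 13.09 to 18.17 FPKM (1.98). Of the lower genes with a term, 70 (18.4%) were annotated to oxidation-reduction, against 7.69% of the tested genes, and 21 (5.53%) to response to toxic substance, against 0.373%. Glutathione S-transferases were called lower for 13 and higher for 4 of 47 tested genes, against 2.25% and 3.71% of all genes tested.

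Some auxin genes were among those higher in the BPC mutants, and the ones named here were called below Col-0 in the Polycomb mutants. Of 157 tested genes of auxin-activated signalling 18 were called higher and 0 lower, and of 232 annotated to the response to auxin 23 were called higher and 9 lower, against 3.71% and 2.25% of all genes tested. *IAA29*, a repressor that auxin induces, had 1.91 and 1.38 FPKM in the double mutant, 1.2 and 1.39 in *cpl2-2*, 5.14 and 9.16 in *aipp3-1*, 0.26 and 0 in *lhp1-3* and 0.13 and 0.16 in *clf-81*, with 5.43 and 5.31 in Col-0, so that the Polycomb libraries were far below Col-0 and *aipp3-1* was at the level of Col-0 (log2 difference 2.27, standard error 0.16, limma adjusted p = 1.5e-06). *IAA7* had 51.67 and 48.34 FPKM in the double mutant, 87.17 and 74.97 in *cpl2-2*, 99.33 and 110.1 in *aipp3-1*, 31.27 and 31.03 in *lhp1-3* and 27.11 and 25.53 in *clf-81*, with 116 and 88.27 in Col-0, and the double mutant was between Col-0 and the Polycomb mutants (log2 difference 1.38, standard error 0.08, limma adjusted p = 3.4e-07). *IAA19* had 5.68 to 23.37 FPKM in the BPC, 2.57 to 3.65 FPKM in the Polycomb and 29.87 and 24.44 FPKM in the Col-0 libraries. *PIN3* and *PIN7*, which encode auxin efflux carriers, had log2 differences of 1.01 and 1.04, and *PIN7* overlapped between the double mutant and *lhp1-3*.

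Some called genes lay beside each other. Of 704 higher genes on the 5 chromosomes 134 (19.0%) had a higher gene as the next tested gene on either side, against 1363 (6.97%) of all 19561 tested genes there. Of 442 lower genes 84 (19.0%) had a lower neighbour, against 866 (4.43%) of all. Runs of at least 3 numbered 7 among the higher genes, with 24 genes, and 4 among the lower, with 14 genes (coordinates in TAIR10.1). The longest held 5 receptor kinase genes, from *CRK5* to *CRK9*, on chromosome 4 from 12117491 to 12136796. *WAK3*, *WAK1* and *WAK2* lay on chromosome 1 from 7434235 to 7448483, and AT5G47590, *HSP14.7* and ATL79 on chromosome 5 from 19297614 to 19302117. Among the lower genes, the nitrilase genes NIT2, NIT1 and NIT3 lay on chromosome 3 from 15983199 to 15995811. Neighbours in such runs are often copies of each other or overlap, and the strand used in counting was not given, so the part of shared reads in these counts was not tested.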

How the data were processed

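RNA of 12-day-old seedlings was sequenced as paired-end poly(A) libraries. Reads were trimmed by the authors (SeqPrep, then Sickle), and the FPKM table they deposited holds 2 decimals for 33048 genes (32548 of them in the TAIR10.1 annotation). The submitters' processing notes name TopHat, Bowtie, RSEM and edgeR, and the roles of these tools, the build and the strand setting for mRNA are not given in the sources used here. FPKM are not counts, so log2(FPKM + 0.5) was fitted with limma 3.58.1 (R 4.3.3, tested on simulated data) in 1 fit of all 16 libraries with 8 residual degrees of freedom, an eBayes trend and Benjamini-Hochberg adjustment over the genes that reached 1 FPKM in 2 or more libraries. Depth was read from the steps of low values, of which 95.2% to 98.0% were within 0.15 of a whole number of fragments. Python 3.11.15, pandas 2.3.3 and numpy 2.4.6 were used. Named genes were the 12 with the widest gap in each direction, genes of the study and of both complexes, up to 4 called members of each list, and up to 10 genes on opposite sides of Col-0. Genes named under annotated families and terms, and further list members, were chosen after their values were seen. The members, lists and comparisons were chosen with earlier results of these data known. Sequences were read from the TAIR10.1 genome of RefSeq.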

Additional observations from a re-analysis of the deposited data

Results flagged for a closer look

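A total of 15 genes were called on opposite sides of Col-0 in the 2 sets, and the 10 with the larger of the smaller changes are given here, with the log2 difference between the sides. *AT3G22235*, annotated as a cysteine-rich stress tolerance protein, differed by 3.66, with 141 to 244 FPKM in the BPC and 5.37 to 37.9 FPKM in the Polycomb libraries, and Col-0 at 56.49 and 44.81. The defensin-like gene *AT3G59930* differed by 3.78 (10.48 to 32.77 against 0.31 to 2.2 FPKM), with Col-0 at 9.67 and 6.23. Library 1 of the double mutant, at 10.48 FPKM, was near Col-0 in this gene. The single mutants had 11.74 and 15.77 FPKM of it in *aipp2-1* and 28.46 and 15.86 FPKM in *paipp2-1*. *AZI1*, a lipid transfer protein of systemic immunity, differed by 2.55 (159.7 to 367 against 25.01 to 47.86 FPKM), with Col-0 at 55.48 and 119.9. The difference was 3.69 for *PR2*, 3.66 for *CRK6*, 3.92 for *CRK4*, 3.12 for *ACD6* and 3.21 for *WAK3*. For *CRK6* the Col-0 libraries were far apart, at 1.04 and 5.24 FPKM. The lower of them was close to *clf-81*, at 0.69 and 0.9 FPKM. In *PR2* only *lhp1-3* was below Col-0 in both libraries, with 1.77 and 1.27 FPKM, while *clf-81* had 17.82 and 47.72 FPKM and Col-0 18.24 and 33.37 FPKM. *AT1G52270*, of unknown function, differed by 2.62 (4.32 to 13.92 against 0.6 to 1.2 FPKM). *CYP82C4* was the only gene with the BPC mutants below and the Polycomb mutants above Col-0, at -3.72, and its double mutant libraries were at the level of Col-0.

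In *paipp2-1*, which took no part in the comparison, *PORA* was above Col-0 by 3.11 on the log2 scale and *HSP14.7* by 1.75.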

How the results depend on the processing

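The main counts of 739 and 448 genes ranged from 706 to 841 and from 411 to 499 without 1 library, and the genes called in all 6 pairs from 159 to 194 and from 71 to 88. Genotype means as units gave 74 and 41, no fold minimum 5454 and 3204, and leaving out *lhp1-3* gave 740 lower genes. Without the double mutant 775 genes were higher and 530 lower, of which 574 and 413 were in the main calls. Fewer libraries leave more genes without overlap: 4681 and 2734 without the double mutant, 4104 and 2644 without *clf-81*, 4934 and 2731 without *lhp1-3*, and 2597 to 3275 and 1433 to 1934 without 1 library. Against Col-0, a minimum of 5 FPKM gave 484 genes higher and 23 lower in the BPC mutants, a pseudocount of 1 gave 29 lower, quantile normalization 76 and leaving out *aipp3-1* 74. Without 1 library the higher genes ranged from 683 to 840 and the lower from 39 to 88 (88 without library 2 of the double mutant), and for the Polycomb mutants from 727 to 837 and from 346 to 409.

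None of the 24 widest-gap genes reversed in those of the 26 settings in which it was tested, and *GILT* and *GATA13* could not be tested at a minimum of 5 FPKM. The 24 genes were chosen for ranges that do not overlap. Leaving out libraries or genotypes or changing the pseudocount could therefore not reverse their sign. With genotype means as units 6 of the 24 lost their call, with limma adjusted p of 0.051 for *AT1G75945*, 0.067 for *AT1G13470*, 0.069 for *AtRLP23*, 0.064 for *AT1G35710*, 0.052 for *AG* and 0.054 for *AT5G39220*. Of the 85 called genes named in the text 58 lost their call with genotype means as units, and 4 to 6 did so without each genotype in turn. A reversal was seen in 1 gene, *MAF5*, at -0.056 without *lhp1-3*. Of the others, *JAZ9* moved to -0.18 and *WRKY18* to -0.29 without *clf-81*, and *FIT* to -0.51 without *lhp1-3*. Without 1 library, 9 genes near the 2-fold minimum came under it, with the value farthest from it for each being 0.84 for *CRK9* and -0.89 for *JAZ9* without library 1 of the double mutant, 0.94 for *PIN3* and -0.97 for *WRKY18* without library 2 of it, -0.91 for *FIT* without library 1 of *clf-81*, -0.95 for *SHP1* without library 2 of *clf-81*, 0.99 for *HSFA2* without library 1 of *lhp1-3*, -0.96 for *CYP79F2* without library 2 of *aipp3-1* and 0.995 for *PIN7* without library 1 of *cpl2-2*. *PIN3* was also under it without library 2 of *aipp3-1* (0.99), 1 of *cpl2-2* (0.97), 2 of *clf-81* (0.998) and 2 of *lhp1-3* (0.992), *SHP1* without library 1 of *cpl2-2* (-0.993) and 1 of *lhp1-3* (-0.967), *JAZ9* without library 2 of *clf-81* (-0.964) and *FIT* without library 2 of the double mutant (-0.999). A replicate block gave 740 and 448 genes, and 189 and 82 in all 6 pairs. Correlations of same-numbered deviations between genotypes were -0.0986 to 0.178. With 2 libraries a genotype, these values cannot show whether libraries shared a culture or a batch. Levels near 0 are limited by depth, and 2 libraries a genotype limit every estimate of spread.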
